A study of Arabidopsis thaliana with 4 samples.

Results

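Glutathione S-transferases (GSTs) of the tau class, GSTU1 to GSTU28, and of the phi class, GSTF2 to GSTF14, were followed in Arabidopsis thaliana seedlings. The 41 genes, 28 tau and 13 phi, were found by their locus identifiers among the 37336 genes of the deposited table. The family was selected on measured values, namely the presence of genes described as GSTs among those called in the same s2lb-2 and WT comparison, so the genotype differences below are a description of the members and no independent test of the family. RNA-seq libraries were made from 2 s2lb-2 samples and 2 wild-type (WT) Col-0 samples, each from whole seedlings grown for 6 days in vitro on sugar-free MS agar in long days, with a separate seed batch for each replicate of a genotype. The s2lb-2 line carries an insertion in S2Lb (AT5G66240), a plant relative of the yeast COMPASS subunit Swd2, in a line first isolated in the Nossen accession and repeatedly backcrossed to Col-0. It is a single insertion allele, and an effect of the insertion and of any remaining Nossen DNA cannot be told apart in these libraries.

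GSTs join the thiol of glutathione to electrophilic compounds, which are then moved into the vacuole, and some bind or carry flavonoids and other small molecules. The tau class is found in plants, and both classes are known for induction by herbicide safeners, oxylipins and, for several phi genes, salicylic acid. TGA factors, which bind the TGACG core of as-1 elements, and WRKY factors, which bind the TTGAC core of W boxes, are known regulators of GST genes.

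The libraries held 34325097 to 38510743 reads on genes in s2lb-2 and 35147859 to 39114300 in WT. Normalized S2Lb read counts were 80.8 and 67.2 in s2lb-2, against 1337 and 1613 in WT, whereas SDG2, which encodes an H3K4 methyltransferase, had 2253 and 2298 against 2010 and 2008. The sample titles gave the genotype as used here, and a second label of the s2lb-2 libraries that names a myc-tagged SDG2 transgene was not used. The shoot markers summed to 49990 and 50287 TPM (reads per exon length, scaled to a common library total) in s2lb-2 and to 51265 and 52597 TPM in WT. The normalized counts of the 8 root markers summed to 65094 and 63264 in s2lb-2 and to 89956 and 79069 in WT, and most of that sum was PYK10, a root beta-glucosidase (61751 and 59728 in s2lb-2, against 86088 and 76205 in WT). Among the other root markers, the Casparian strip genes CASP1 and CASP2 were below both WT libraries in both s2lb-2 libraries, and the root-hair expansin EXPA7 and SCR, an endodermis regulator, were above them. In whole seedlings fewer cells of a type and less RNA per cell cannot be told apart, and the part of root content in the GST values was not tested.

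The GST genes are arranged in clusters. With a gap of at most 10 kb between members, 29 of the 41 lay in 9 clusters and 12 stood alone in TAIR10.1. Start regions from 2 clusters are shown because neighbours in them had unequal changes, as given further on. GSTF7, GSTF6, GSTF5 and GSTF4 lie in that order at chr1:658578-666471, all on the minus strand, and GSTF9 and GSTF10 lie at chr2:13138882-13142676 on the plus strand. The 300 bases from 250 before to 50 after the annotated start are given 5′ to 3′ from the RefSeq copy of TAIR10.1, in lower case with TTGAC and TGACG, on either strand, in capitals. The windows are chr1:659931-660230 (GSTF7) and chr1:666422-666721 (GSTF4), both minus strand, and chr2:13138632-13138931 (GSTF9) and chr2:13141040-13141339 (GSTF10), both plus strand.
GSTF7: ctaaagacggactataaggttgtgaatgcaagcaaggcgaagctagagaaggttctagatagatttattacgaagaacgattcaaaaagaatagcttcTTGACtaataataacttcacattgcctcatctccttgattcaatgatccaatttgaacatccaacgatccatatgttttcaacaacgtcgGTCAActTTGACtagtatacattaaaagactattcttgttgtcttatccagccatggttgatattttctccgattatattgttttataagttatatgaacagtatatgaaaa
GSTF4: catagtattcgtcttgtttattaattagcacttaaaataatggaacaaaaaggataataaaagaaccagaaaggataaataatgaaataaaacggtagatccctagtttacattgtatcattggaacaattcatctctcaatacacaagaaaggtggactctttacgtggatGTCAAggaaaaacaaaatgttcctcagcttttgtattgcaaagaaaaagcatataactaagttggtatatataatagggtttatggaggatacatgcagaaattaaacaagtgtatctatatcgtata
GSTF9: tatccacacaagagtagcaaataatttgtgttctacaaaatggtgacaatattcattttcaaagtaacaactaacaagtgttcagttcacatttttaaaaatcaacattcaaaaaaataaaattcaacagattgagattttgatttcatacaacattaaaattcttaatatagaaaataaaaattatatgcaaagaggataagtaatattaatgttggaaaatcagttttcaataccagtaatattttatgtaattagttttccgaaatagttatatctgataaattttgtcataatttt
GSTF10: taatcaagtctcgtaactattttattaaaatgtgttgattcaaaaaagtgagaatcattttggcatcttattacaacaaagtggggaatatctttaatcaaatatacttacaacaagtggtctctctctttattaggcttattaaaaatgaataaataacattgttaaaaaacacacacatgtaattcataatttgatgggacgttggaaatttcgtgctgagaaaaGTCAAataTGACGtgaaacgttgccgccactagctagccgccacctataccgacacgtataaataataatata

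In these windows GSTF7 held 3 copies of TTGAC, GSTF4 held 1, GSTF10 held 1 copy each of TTGAC and TGACG, and GSTF9 held neither. Other neighbours with unequal change went both ways. GSTU17, higher in s2lb-2, held 2 copies of TTGAC and GSTU18, lower, held 0. The GSTU18 window lies wholly within the annotated GSTU17 gene. GSTU5, lower, held 3 copies of TTGAC and 1 of TGACG, and GSTU4, higher, held 1 and 0. A relation between copies and change was not tested. TTGAC on either strand was present in 25 of 41 member windows (61.0%), against 50.5% of the 27443 windows of all protein-coding genes. TGACG on either strand was present in 17 of 41 (41.5%), against 23.1% of all windows. The 2 motifs can overlap, since TTGACG holds both. Counted on either strand, GSTU7 had the most TGACG matches, 3, in the run shown next (chr2:12618850-12619149, minus strand). Of these, 2 overlap in TGACGTCA, 1 on each strand, so they are not separate copies. Whether the run is an as-1 element was not tested.
GSTU7: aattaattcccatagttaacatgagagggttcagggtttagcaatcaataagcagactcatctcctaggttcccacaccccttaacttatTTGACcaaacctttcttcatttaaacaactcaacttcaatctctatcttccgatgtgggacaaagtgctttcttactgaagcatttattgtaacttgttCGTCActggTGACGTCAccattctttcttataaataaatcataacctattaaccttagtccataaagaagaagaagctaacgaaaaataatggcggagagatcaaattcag
GSTU7 itself had 171 and 250 normalized counts in s2lb-2, against 200.5 and 206 in WT, so the genotypes overlapped. A match of 5 letters is a description of the window and not a binding site.

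At the level of protein sequence, translated from the RefSeq coding sequences, tau members shared a median of 38.5% of residues with each other (378 pairs), phi members 38.8% (78 pairs), and a tau and a phi member 20.1% (364 pairs). Only GSTF6 with GSTF7 (93.3%) and GSTF2 with GSTF3 (92.5%) were at least 90% identical. The sequenced reads were 50 bases long, and 107 windows of 50 bases were shared by the GSTF6 and GSTF7 transcripts, 13.1% of those of GSTF6 and 9.19% of those of GSTF7, so a part of their reads could not be assigned to one of them.

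GST transcript levels spanned more than 3 orders of magnitude. In TPM, the 5 highest members by mean over the 4 libraries were GSTF9 (895), GSTU19 (885), GSTU20 (556), GSTF10 (344) and GSTF8 (316). The order of the top pair turned with genotype: GSTU19 averaged 989 TPM in s2lb-2 and 781 TPM in WT, and GSTF9 740 TPM in s2lb-2 and 1049 TPM in WT. These 5 members gave 74.7% and 73.9% of the summed TPM of the family in s2lb-2, against 78.3% and 79.5% in WT. The summed TPM of the family was 3728 and 4227 in s2lb-2, against 3933 and 3763 in WT, so the genotypes overlapped in the sum. GSTU19, a tau enzyme with broad conjugating activity in vitro, and GSTF8, whose promoter is a known stress-responsive model, were both among them. By mean TPM, 8 members were above 100, 13 lay between 10 and 100, 11 between 1 and 10, and 7 had a level above 0 and up to 1. In the order of the WT means, 18 of 39 neighbouring pairs had WT libraries that did not overlap and 21 had libraries that did.

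**Figure D1:**
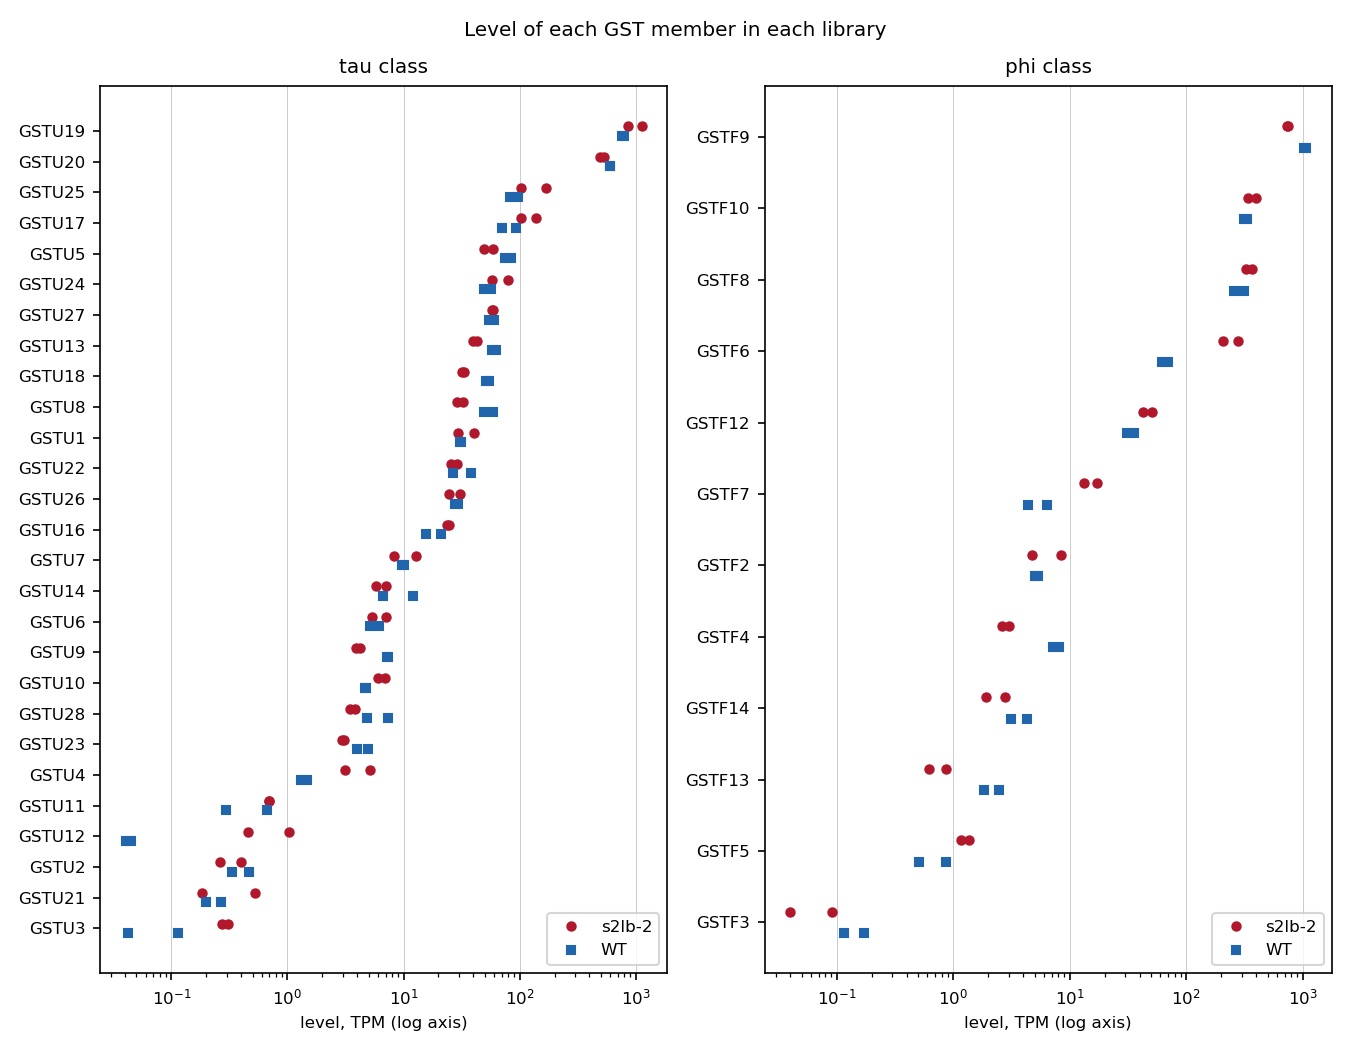
Level of each member with reads in each library, in TPM on a log axis, with tau members on the left and phi members on the right, ordered by mean level. Circles are the 2 s2lb-2 libraries and squares the 2 WT libraries. GSTF9 and GSTU19 are the highest phi and tau members, and the circles of GSTF6 lie clear to the right of its squares.

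GSTU15 and GSTF11 had 0 reads in all 4 libraries, where 3 reads correspond to 0.0767 to 0.0874 CPM (counts scaled to a common library total). For GSTF11 the 0 is not a measurement of expression. All of its exon bases lie under AT3G03200 on the opposite strand, and of the 338 protein-coding genes of the table covered in this way, 337 had no read (99.7%), against 13.9% of the 19821 genes that share no exon base. The counts therefore do not separate the strands at such loci. GSTU15 shares no exon base with another gene. Other members with exons partly shared with an opposite-strand gene were GSTU2 (70.4%), GSTU7 (68.9%), GSTF2 (60.5%), GSTU6 (29.9%), GSTF4 (29.3%), GSTF12 (9.85%), GSTU10 (7.72%) and GSTF10 (1.06%), and their TPM is understated. Over unshared exon length alone the mean level was 32.9 TPM for GSTU7, in place of 10.2, and 14.8 TPM for GSTF2, in place of 5.84. All 14 protein-coding genes wholly under a same-strand gene also had no read. GSTF8 shared 9.14% of its exon bases with AT2G47720 on the same strand. Over unshared exon length GSTF8 was at 347.8 TPM and GSTF10 at 347.9 TPM, in place of 316 and 344. Their order stayed the same, but the 2 were then nearly level.

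Differences between genotypes were estimated with limma on log2(normalized count + 1), which understates the change of low genes, over 23723 genes with a mean of at least 1. Of the 39 members tested, only GSTF6 was called at an adjusted p under 0.01, higher in s2lb-2. The background was 0.122% of the genes tested (29 genes, either direction). DESeq2 on the reads recovered from the table called GSTF6 and GSTF7 higher, where 1.37% of genes were called higher, and GSTF4, GSTF9, GSTU5, GSTU8, GSTU13 and GSTU18 lower, where 1.84% were called lower. At an adjusted p under 0.05, limma called 5 members, GSTF6 and GSTF7 higher and GSTF4, GSTU8 and GSTU18 lower, where 1.60% of genes were called. Because the same comparison led to the choice of the family, nothing is read from these shares.

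The 2 genotypes did not overlap in 28 members. Both s2lb-2 libraries were above both WT libraries in 15 of 39 members (38.5%), against 24.8% of all genes tested, and below them in 13 (33.3%), against 24.7%. The median log2 fold change of the members was 0.11, against -0.0022 over all genes tested, and the median of its absolute value was 0.53, against 0.20. Without s2lb-2 replicate 2 the median of the members was -0.086. In the tau class 9 members were above and 8 below without overlap, of 27 tested. In the phi class 6 were above and 5 below, of 12.

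**Figure D2:**
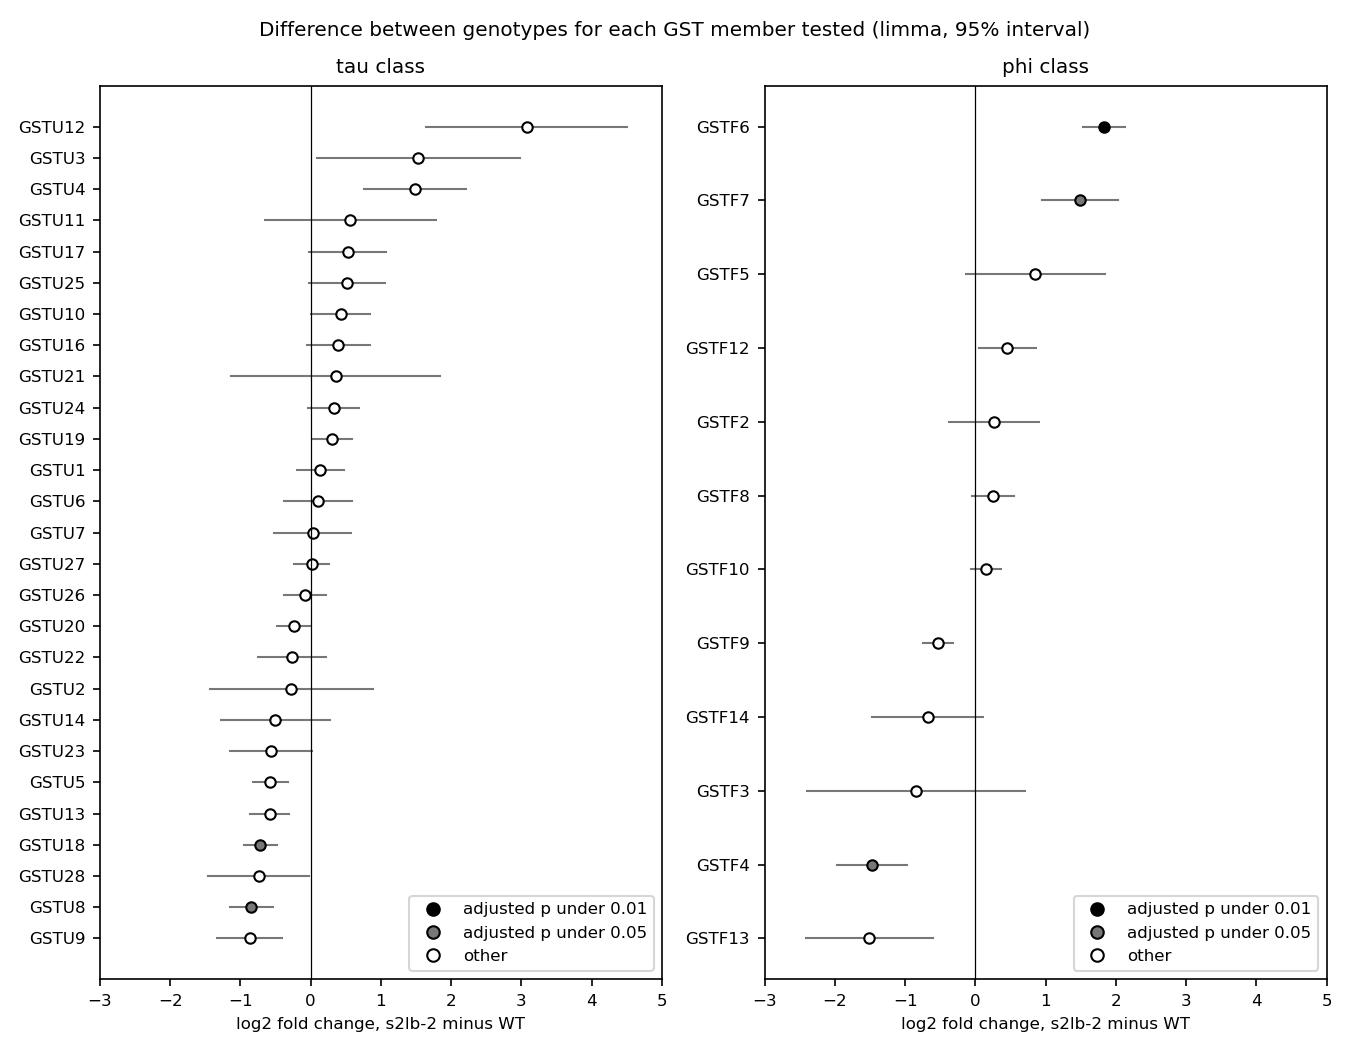
Log2 fold change (s2lb-2 minus WT) of each member tested, with tau members on the left and phi members on the right. Points are limma estimates and lines their 95% intervals, black where the adjusted p was under 0.01, grey under 0.05 and white otherwise. GSTF6 is the one black point, and members lie on both sides of 0 in both classes.

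Among members with a mean of at least 10, the highest estimate was that of GSTF6 (AT1G02930), a phi enzyme known for induction by salicylic acid and pathogens. Its normalized counts were 5821 and 7139 in s2lb-2, against 1728 and 1886 in WT. Both mutant libraries lay above both WT libraries, by a mean ratio of 3.59 (log2 fold change 1.84 ± 0.12 SE, limma adjusted p = 0.00871). With any 1 of the 4 libraries left out, the log2 fold change was 1.69 to 1.98 and the limma adjusted p 0.278 to 0.461, and no gene of the 23723 tested was called in any of these fits, so they do not bear on the call. The near copy GSTF7 (AT1G02920) had 380 and 454 counts in s2lb-2, against 124 and 176 in WT, without overlap (log2 fold change 1.48 ± 0.22 SE, limma adjusted p = 0.0459, DESeq2 adjusted p = 5.68e-06). The ratio of GSTF6 to GSTF7 counts in a library was 15.3 and 15.7 in s2lb-2, against 13.9 and 10.7 in WT. The 107 shared windows touch both genes.

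GSTF5, their neighbour, was much lower in level, with 31.5 and 24.8 counts in s2lb-2 and 11.5 and 19.5 in WT, and was not called. GSTF4 (AT1G02950), at the other end of the cluster, went the other way. It had 60.1 and 64.1 counts in s2lb-2, against 187 and 161 in WT (log2 fold change -1.47 ± 0.20 SE, limma adjusted p = 0.0400, DESeq2 adjusted p = 0.000263). The ratio of GSTF6 to GSTF4 counts, in which the scaling of a library cancels, was 96.9 and 111 in s2lb-2, against 9.25 and 11.7 in WT. GSTF4 shares 29.3% of its exon bases with AT1G02952 on the other strand.

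**Figure D3:**
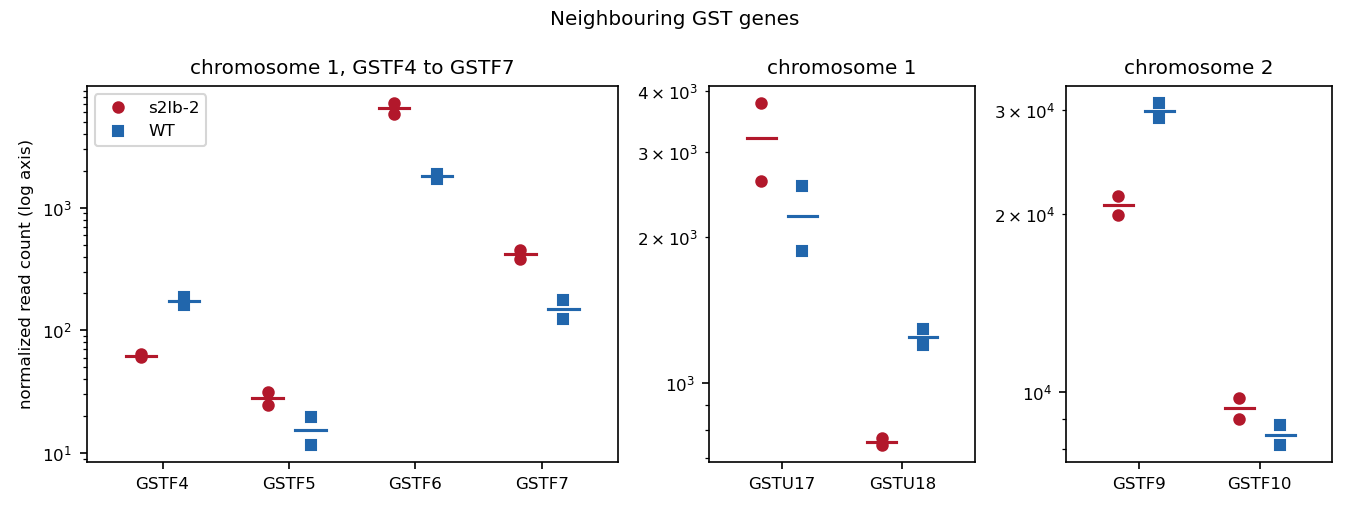
Normalized read counts on a log axis of the GSTF4 to GSTF7 cluster, the GSTU17 and GSTU18 pair and the GSTF9 and GSTF10 pair, with s2lb-2 circles to the left of WT squares and bars at the means. The circles lie below the squares for GSTF4, GSTU18 and GSTF9 and above them for their neighbours, of which GSTF5, GSTF10 and GSTU17 were not called, as for GSTF4 (60.1 and 64.1 against 187 and 161) beside GSTF6 (5821 and 7139 against 1728 and 1886).

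GSTF9 and GSTF10, 80.0% identical in protein, formed a second neighbourhood with unequal change. GSTF9 (AT2G30860), the highest member by mean TPM in WT, had 21464 and 19945 counts in s2lb-2, against 30818 and 29042 in WT (log2 fold change -0.53 ± 0.09 SE, limma adjusted p = 0.0571, DESeq2 adjusted p = 0.000240). GSTF10 had 8986 and 9767 counts in s2lb-2, against 8764 and 8112 in WT (log2 fold change 0.15, 95% interval -0.06 to 0.37). The GSTF9 to GSTF10 ratio was 2.39 and 2.04 in s2lb-2, against 3.52 and 3.58 in WT, without overlap.

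GSTU17 and GSTU18 (74.9% identical) lie side by side on chromosome 1. GSTU17, a gene with a known role in light-dependent seedling development, had 3779 and 2616 counts in s2lb-2, against 2543 and 1870 in WT, and was not called. GSTU18 (AT1G10360) had 768 and 743 counts in s2lb-2, against 1291 and 1196 in WT (log2 fold change -0.72 ± 0.10 SE, limma adjusted p = 0.0379, DESeq2 adjusted p = 8.99e-05). Their ratio was 4.92 and 3.52 in s2lb-2, against 1.97 and 1.56 in WT. The genes overlap on the same strand, over 6.12% of the GSTU17 and 6.97% of the GSTU18 exon bases.

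The other members called lower by DESeq2 were all tau genes. GSTU8 (AT3G09270) had 924 and 967 counts in s2lb-2, against 1875 and 1537 in WT (log2 fold change -0.84 ± 0.12 SE, limma adjusted p = 0.0439). GSTU5 (AT2G29450) had 1482 and 1629 counts in s2lb-2, against 2200 and 2436 in WT (-0.57 ± 0.10 SE, limma adjusted p = 0.0688), and lies in the GSTU1 to GSTU7 cluster on chromosome 2. There its neighbour GSTU4 had 86.7 and 133 counts in s2lb-2, against 35.7 and 39.9 in WT (1.49 ± 0.29 SE, limma adjusted p = 0.0898, DESeq2 adjusted p = 0.0128), the highest estimate among tau members with a mean of at least 10. The GSTU5 to GSTU4 ratio was 17.1 and 12.2 in s2lb-2, against 61.6 and 61.0 in WT. GSTU13 (AT1G27130) had 1291 and 1106 counts in s2lb-2, against 1870 and 1714 in WT (-0.58 ± 0.11 SE, limma adjusted p = 0.0862). GSTU9, the lowest tau estimate, had 103 and 87.9 counts in s2lb-2, against 177 and 172 in WT (-0.87 ± 0.19 SE, limma adjusted p = 0.106), and lies 1.38 Mb from S2Lb on chromosome 5.

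Of the 5 members highest in mean TPM, GSTF9 and GSTF10 were given above. GSTU19 had 22533 and 27457 counts in s2lb-2, against 19976 and 20461 in WT (log2 fold change 0.30, 95% interval 0.02 to 0.58). GSTU20, its neighbour, had 14394 and 12418 counts in s2lb-2, against 15988 and 15687 in WT (-0.24, 95% interval -0.48 to -0.0037). GSTF8 had 18216 and 19257 counts in s2lb-2, against 17586 and 14165 in WT (0.25, 95% interval -0.05 to 0.55). None of these 3 was called by limma or DESeq2. GSTF13 had the lowest phi estimate, with 18.7 and 12.4 counts in s2lb-2 and 52.5 and 39.0 in WT (-1.51 ± 0.36 SE, limma adjusted p = 0.125). GSTF2 had 164 and 268 counts in s2lb-2, against 171 and 178 in WT, and its near copy GSTF3 had 0.98 and 2.07 against 4.20 and 2.79. GSTF12 (TT19), which is needed for anthocyanin to reach the vacuole, had 1320 and 1010 counts in s2lb-2, against 918 and 775 in WT, without overlap (0.45, 95% interval 0.05 to 0.86, limma adjusted p = 0.244); it and GSTU12 were named after their values were seen. GSTU12 had 10.8 and 22.8 counts in s2lb-2 and 1.05 and 0.93 in WT, a count of 1 read in each WT library.

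The genes around the family moved in several ways. The 13 genes of other GST classes (zeta, theta, lambda, DHAR and others) held 1 called by DESeq2, where 1.37% of genes were called higher. It was GSTL1, a lambda GST, with 985 and 971 counts in s2lb-2 against 360.0 and 297 in WT (limma adjusted p = 0.0147). None of the 16 genes of glutathione synthesis and turnover passed 0.01 by limma or DESeq2. Of these, 6 had an unadjusted limma p under 0.05, where 17.4% of all genes tested did. Without overlap, 9 of the 16 were higher in s2lb-2 and 1 lower, against 24.8% and 24.7% of all genes tested. The 9 include GGT2, with 5 reads summed over the s2lb-2 libraries and 0 over the WT libraries. Of 3 vacuolar ABCC transporters, which carry glutathione conjugates, ABCC3 was called by DESeq2 (1.37% of genes called higher). ABCC3 had 3372 and 3161 counts in s2lb-2, against 1832 and 1999 in WT (limma adjusted p = 0.0289). None of the 11 TGA factors and partners and none of the 7 xenobiotic and oxylipin response genes passed 0.01 by either tool. At an unadjusted limma p under 0.05 were 1 of 11 and 2 of 7, again beside 17.4% of all genes. Without overlap, 2 of the 11 were higher and 3 lower. All 7 xenobiotic and oxylipin response genes had a limma estimate above 0 (median log2 fold change 0.35). Of these 7, 5 were higher without overlap and 0 lower (24.8% and 24.7% of all genes tested). The 5 include SAG13, with 6 reads summed over the s2lb-2 libraries and 1 over the WT libraries.

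All 11 anthocyanin pathway genes had a limma estimate above 0 (median log2 fold change 1.23; PAP2, at 8.40 counts or fewer in each library, was at -0.04 by DESeq2), and 2 were called by limma (0.122% of all genes tested) and 6 by DESeq2 (1.37% called higher), all higher in s2lb-2. DFR, dihydroflavonol reductase, had 5543 and 5170 counts in s2lb-2, against 1535 and 1782 in WT (limma adjusted p = 0.00833). LDOX, anthocyanidin synthase, had 4019 and 3655 counts in s2lb-2, against 1212 and 1115 in WT (limma adjusted p = 0.00781). CHS, F3'H, UF3GT and 5MAT were the other 4. Of 9 glucosinolate core genes, CYP79F1, which acts on chain-elongated methionine, was called lower by DESeq2 (1.84% of genes called lower). CYP79F1 had 1479 and 1061 counts in s2lb-2, against 2688 and 2124 in WT.

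The sulfate assimilation list, which supplies the cysteine of glutathione, had no gene past 0.01 by limma or DESeq2, and 3 of 13 at an unadjusted limma p under 0.05 (17.4% of all genes tested). In 12 of its 13 genes replicate 1 was above replicate 2 in both genotypes, against 29.4% of all genes tested, and SULTR1;1 was the exception. APR1, an APS reductase, had 4413 and 2445 counts in s2lb-2 replicates 1 and 2, against 4382 and 1914 in WT replicates 1 and 2. The seed storage gene CRA1 was likewise higher in both libraries numbered 1, with 112 and 19.7 counts in s2lb-2, against 301 and 16.7 in WT.

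**Figure D4:**
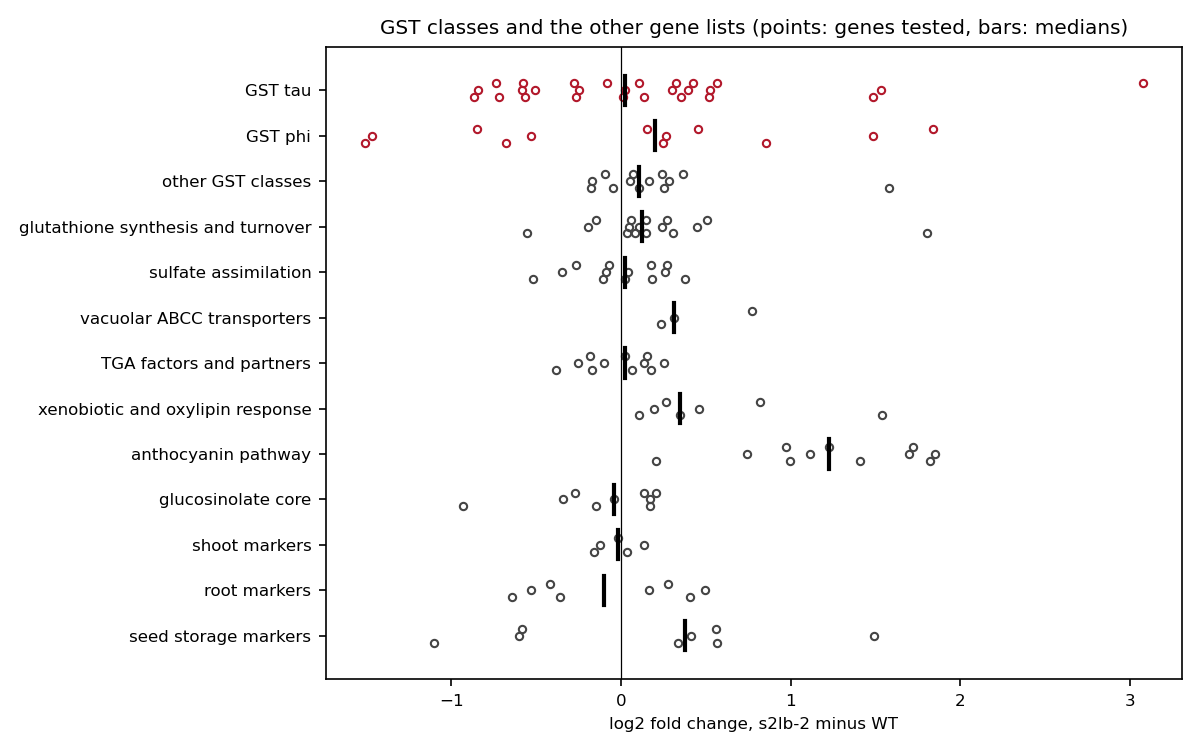
Log2 fold change (s2lb-2 minus WT, limma) of the genes tested in the tau and phi classes and in each other list. Points are genes and black bars are medians. The anthocyanin pathway lies to the right of 0 (median 1.23), while tau and phi members lie on both sides.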

How the data were processed

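Polyadenylated RNA from whole seedlings was sequenced as strand-specific 50-base single reads. The submitters' processing notes name STAR 2.5.4b, the TAIR10 build and DESeq2 (its version is not given). The authors' STAR command set the GeneCounts option, with the Araport11 annotation. The deposited table holds, per the file headers and values, the normalized signal of each gene, that is counts the authors divided by DESeq2 size factors. All values of each library became whole reads at a tolerance of 1e-06. The authors' fold changes and p-values were not used, and the table as read held 0 columns beyond the gene identifiers and the 4 libraries. All 37336 IDs were looked up in RefSeq TAIR10.1 (37051 matched, and the other 285 were organelle genes). The main fit was limma 3.58.1 on log2(normalized count + 1), mean of at least 1, genotype only, Benjamini-Hochberg over all genes tested, threshold 0.01. DESeq2 1.42.0 (independent filtering at its default, chosen after a first fit that set it for 0.01), edgeR 4.0.16 quasi-likelihood and limma-voom were run on the recovered reads. The fits were tested on simulated data. TPM used RefSeq exon length. Pseudocounts, filters, scalings, the replicate number and each library left out were varied. P-values measure the spread between 2 samples a group, from separate seed batches, and an exact permutation test of 2 against 2 cannot go below 0.333.

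Members and gene lists were chosen with earlier results of these data known. Values are given per library for members called by limma or DESeq2, the 5 highest by TPM, the largest rise and fall of each class with a mean of at least 10, and members at least 90% identical to another. From the other lists they are given for called genes, except CHS, F3'H, UF3GT and 5MAT, which are only named. Other genes are named as examples or checks. One marker gene and one start region are not reported here.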

Additional observations from a re-analysis of the deposited data

How the results depend on the processing

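GSTF6 was the one member called by limma, and 1 member was also called by edgeR and by limma-voom. The same count was found with TMM, library totals or upper-quartile scaling, with no filter or a mean of at least 10, and with a pseudocount of 0.5. These alternatives called 27 to 66 genes in all. With a pseudocount of 0.1, 0 members passed (GSTF6 limma adjusted p = 0.0138). Only 1 gene of all tested passed there, so that 0 says little of the members. DESeq2 called 8 members, also with its independent filtering set for 0.01 (an alternative added after seeing the data, with 704 genes called in place of 706), and 5 passed at a limma threshold of 0.05. With the replicate block, limma called 9 members and 663 genes, and DESeq2 8 members and 674 genes. GSTU17 was then called higher by both, and GSTF4 was no longer called by DESeq2 (adjusted p = 0.0126). Nothing in the labels ties a replicate number to a common batch, and with 2 pairs the libraries were not treated as paired, although same-numbered libraries deviated together (r = 0.178 across 23723 genes, 0.407 across the 17913 with a mean of at least 50, genes not being independent). Without each library in turn the number of members called was 0 to 0, as was that of all genes, so these counts say nothing of stability, with 1 library left in a genotype that is assumed to vary like the other, and the log2 fold change of GSTF6 was 1.69 to 1.98. The median log2 fold change of the members was -0.086 to 0.25 over these 4 settings, so its sign rests on 1 library: it was -0.086 without s2lb-2 replicate 2. The log2 fold change of GSTF2, 0.26, was -0.086 to 0.61 over the same settings. Among the 104 genes of the 11 other lists, 2 were called by limma, 9 by DESeq2 and 6 at a limma threshold of 0.05. The anthocyanin pathway held 2, 6 and 4 of these. The shares of all genes were 0.122% by limma, 1.37% higher and 1.84% lower by DESeq2, and 1.60% at 0.05. The counts of members without overlap stayed within 1.5 times of the 15 higher and 13 lower under each scaling and filter tried. The cause of these differences was not tested.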
